A study of Mus musculus with 11 samples.

Results

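The proteasome genes of mouse liver were followed across 3 feeding states on 2-colour arrays. Members were the array rows whose gene symbol in the platform's table starts with Psma, Psmb, Psmc, Psmd or Psme followed by a digit, which gave 45 rows, here called spots, for 44 genes, of 17280 rows in all. The controls were kept on chow labelled 6.5% fat, 49% carbohydrate and 23% protein (3.5 kcal per g) during the 10 weeks of the study. The high-fat group spent those 10 weeks on a diet labelled 42.16% fat, 42.81% carbohydrate and 15.02% protein (4.53 kcal per g). The fasted group had the same high-fat diet followed by a fast of 48 h. Whether the percentages are by weight or by energy was not resolved here, so 6.5% and 42.16% fat may not share a scale. The strain is written C57/BL/6J in the descriptions and C57/BL/J6 in most source names. The source name of high-fat mouse 4 gives no strain, no age is given, and each array is labelled as 1 mouse. There were 4 control, 4 high-fat and 3 fasted arrays, from study groups of 9, 5 and 4 mice, and high-fat array 4 was left out of the comparisons. All groups thus differ from each other by diet, by fast or by both, and a fasted chow group is not among the arrays analysed here. The diets differ in fat, carbohydrate, protein and energy together, and the parts of these cannot be told apart.

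The proteasome is the protease that degrades proteins tagged with ubiquitin in the cytosol and nucleus. Its barrel-shaped core is built of alpha rings, which gate the entry of substrates, and beta rings, which hold the proteolytic sites. The regulatory particle caps the core: its base contains ATPases that unfold substrates and large scaffold subunits, and its lid removes the ubiquitin chain. In liver the proteasome degrades cytosolic enzymes and misfolded proteins drawn out of the endoplasmic reticulum, and it works beside autophagy in the protein turnover of the fasted state.

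Every value is a log ratio of liver RNA, labelled with Cy5, over a common reference RNA, labelled with Cy3, taken as log2 and centred on the median of its array. A value of 0 therefore means the ratio of the middle spot of that array, and neither expression per length nor a level of one gene against another can be read from it. The deposited array medians lay between 0.07 and 0.47. Neither the base of the logarithm nor the authors' normalisation is stated in the labels, and the direction rests on the labelled dyes. Albumin (Alb) lay between 1.71 and 3.11 on the 10 arrays compared. Medians of the hepatocyte markers filled on all 10 arrays ran from 0.37 for Hp to 2.59 for Alb, each above the middle of the array. Only Hp read below 0 on any of these arrays, down to -0.26. The 11 arrays held a value for 3864 to 5567 spots each, and intensities are not used here, so the signal behind a value is unknown and precision is set by how many arrays there are. Any 2 of the 10 arrays correlated across spots with r from 0.691 to 0.941. High-fat array 4 correlated with them with r from -0.03 to 0.01, and Alb was at -0.04 on it. The spread of the values (scaled median absolute deviation) lay between 0.385 and 0.578 on high-fat, between 0.638 and 0.771 on control and between 0.652 and 0.726 on fasted arrays. In bulk liver, fewer cells of a type and less RNA per cell cannot be told apart.

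Of the 45 member spots, 15 were empty on all 10 arrays, 22 held a value on 1 to 9 of them and 8 held a value on all 10. The share that was empty was 33.3% for the members and 56.9% for all rows. With 2 or more values required in each group, 13 spots of 12 genes could be tested, or 28.9% of the member spots against 20.9% of all rows (3606 spots). The tested spots were Psma4 and Psma7 of the alpha rings, Psmb1, Psmb2 and Psmb5 of the beta rings, the thymic beta subunit Psmb11, Psmc1, Psmd1 and Psmd2 of the base, and Psmd11 (2 spots) and Psmd14 of the lid. The last tested spot was Psmc3ip, which matches by symbol alone: its product interacts with Psmc3 and serves meiotic recombination, and is no subunit. No activator (Psme1 to Psme4) and no assembly chaperone (Psmd5, Psmd9, Psmd10) could be tested. Psme3ip1, the other match that is no subunit, was empty.

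**Figure D1:**
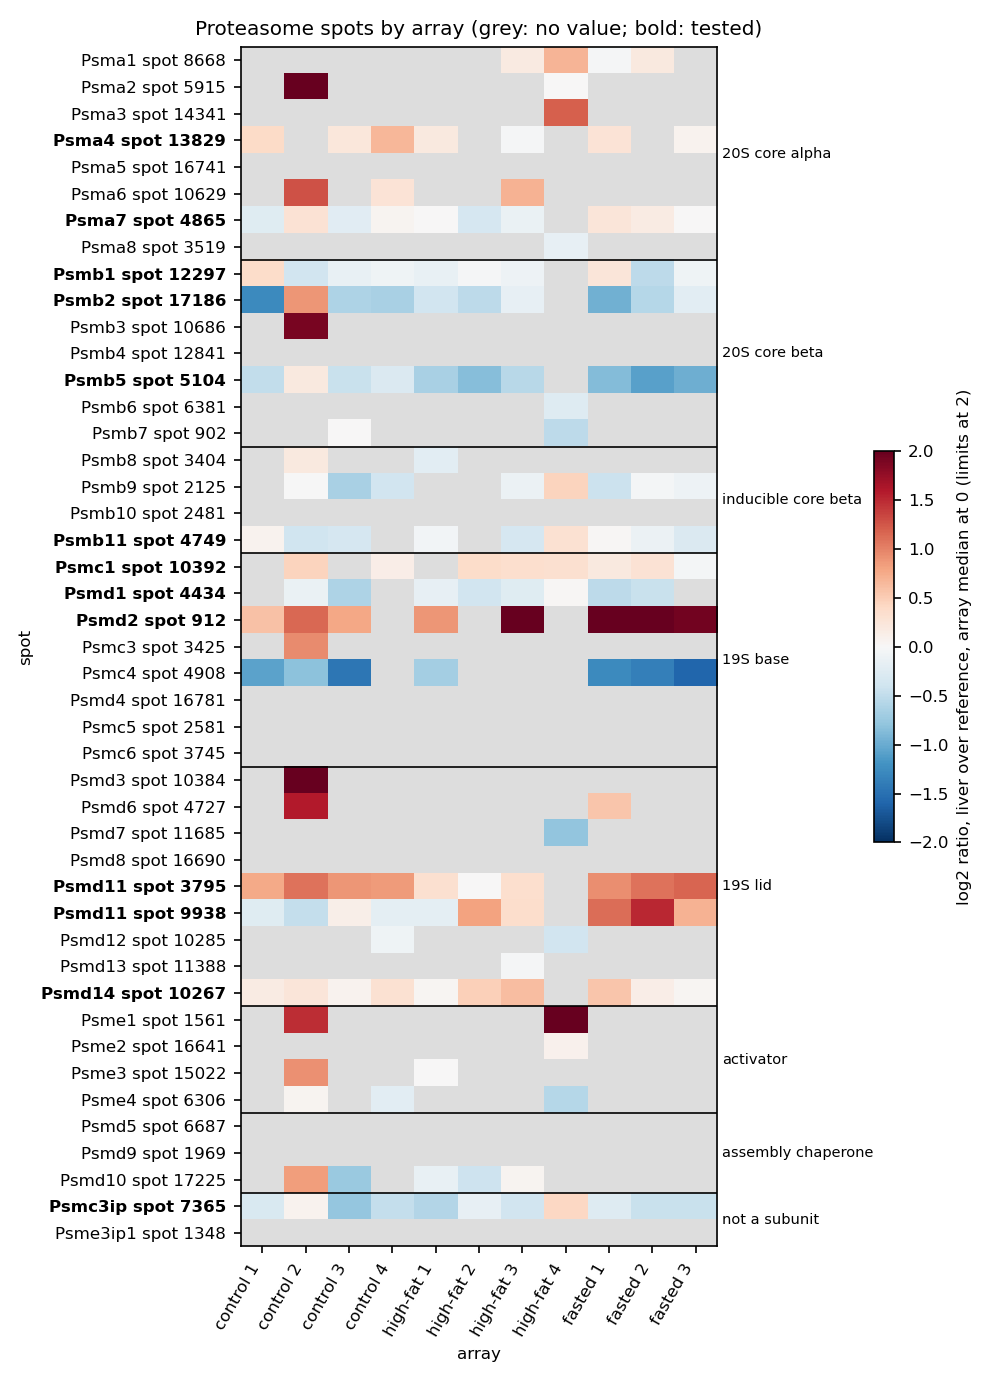
Centred log2 ratio of liver over reference for each of the 45 member spots (rows, ordered by role in the complex) on the 11 arrays (columns), with empty cells where the deposited table holds no value. The 13 tested spots are those with 2 or more values in each of the 3 groups; 15 rows are empty on all 10 arrays that were compared.

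Among the untested members, control array 2 stood out. It held a value for 25 of the 45 member spots (55.6%), more than any other array, and high-fat array 2 held the fewest, 11. Of the 8 spots filled on only 1 of the 10 arrays, 5 were filled on control array 2 alone. Over all rows this held for 455 of 1355 such spots. The 5 were Psma2 at 2.05, Psmb3 at 1.90, Psmc3 at 0.94, Psmd3 at 2.04 and the activator subunit Psme1 at 1.47, each above the middle of the array. Of the 12 tested spots with a value there, control array 2 gave the highest control value for 8, the lowest for 3 and an inner one for 1. Psmd1 and Psmc1 had only 1 other control value, so an inner place was not possible for them. The shares over all spots were not counted, so no conclusion is drawn from these counts. What set control array 2 apart was not tested. Without it the number of member calls was the same in all 3 comparisons, at 1, 1 and 2.

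The 3 genes with the largest changes below were Psmd11, Psmd2 and Psmb5, and the 100 bases before the start of each are shown because the promoters of proteasome genes are the place where the transcription factor Nfe2l1 raises their expression. They come from RefSeq (GRCm38.p6), read along each gene's own strand, at chr11:80428515-80428614 on the plus strand for Psmd11, chr16:20651552-20651651 on the plus strand for Psmd2 and chr14:54617996-54618095 on the minus strand for Psmb5. Capitals mark the letters TGACNNNGC, the core of the antioxidant response element to which factors of the Nfe2l family bind.
Psmd11: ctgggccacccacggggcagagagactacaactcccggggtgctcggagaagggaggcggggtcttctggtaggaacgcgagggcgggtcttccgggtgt
Psmd2: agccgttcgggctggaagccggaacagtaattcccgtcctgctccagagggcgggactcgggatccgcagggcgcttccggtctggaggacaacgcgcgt
Psmb5: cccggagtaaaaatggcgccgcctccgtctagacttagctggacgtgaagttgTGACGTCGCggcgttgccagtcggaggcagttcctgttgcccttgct
The Psmb5 stretch carried the motif 47 to 39 bases before the start, and the other stretches held no match. In windows of 250 bases before to 50 after the start, on both strands, the motif was found in 6 of the 37 member genes with an entry (16.2%), against 14.0% of all 27025 genes. Of the 10 tested genes with an entry, Psmb5 alone held it. The letters CCAAT, the box bound by NF-Y, were found in 15 of 37 member genes (40.5%) against 41.1% of all genes, and in 5 of the 10 tested. A match describes letters in these windows and is not a measured binding site.

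The high-fat diet was set against chow first, which asks how liver expression differs after 10 weeks on these diets. Of the 13 member spots, 1 fell and 0 rose with limma at a Benjamini-Hochberg adjusted p under 0.05 over all 3606 spots. Over all spots, 190 were called (5.27%), of which 114 rose (3.16%) and 76 fell (2.11%). The called member was the first spot of Psmd11, numbered 3795. The count over all spots rested on single arrays: it was 33 without high-fat array 2, 47 without high-fat array 3, 117 without control array 3, and 124 without fasted array 1 or fasted array 2. At an unadjusted p under 0.05 there were 2 member spots and 919 spots in all. The median change of the 13 spots was 0.03, with 7 above 0, beside a median of 0.08 over all spots. The high-fat and control values did not overlap for 3 member spots, Psmd11 spot 3795, Psmb5 and Psma4, beside 25.9% of all spots. The 1 call among 13 members (7.69%) lies near the share over all spots.

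The fast was then set against the fed high-fat state. The same spot of Psmd11 was the only member called and it rose, beside 12 calls over all spots (0.333%), 2 of which rose (0.0555%) and 10 of which fell (0.277%). Without control array 2 the count over all spots was 30, and without any other 1 array it was 3 to 6. The member call was lost without any 1 array except control array 2. The median change of the members was -0.0033, with 6 of 13 above 0, beside -0.05 over all spots. The groups did not overlap for 4 member spots, Psmd11 spot 3795, Psmb5, Psmd1 and Psmc1, beside 29.0% of all spots. Without high-fat array 1 the members' median was -0.14, on the 10 spots that could then be tested, so the set of spots changed too.

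Fasted mice were last set against chow-fed controls, which combines diet and fast. Of the members, 1 rose and 1 fell: the other spot of Psmd11, numbered 9938, and Psmb5. Over all spots 138 were called (3.83%), with 92 higher (2.55%) and 46 lower (1.28%). The members' median change was -0.005, with 6 of 13 above 0, beside 0.01 over all spots. The groups did not overlap for 3 member spots, Psmd2, Psmd11 spot 9938 and Psmb5, beside 22.5% of all spots. Without control array 2 the members' median was 0.14, on the 11 spots that could then be tested, so the set of spots changed too. The count over all spots rested on the fasted arrays: with limma it was 6 without fasted array 1 and 0 without fasted array 2, where 560 spots had an unadjusted p under 0.05. The 3 comparisons share their groups, so their values are given side by side and are not independent of each other.

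**Figure D2:**
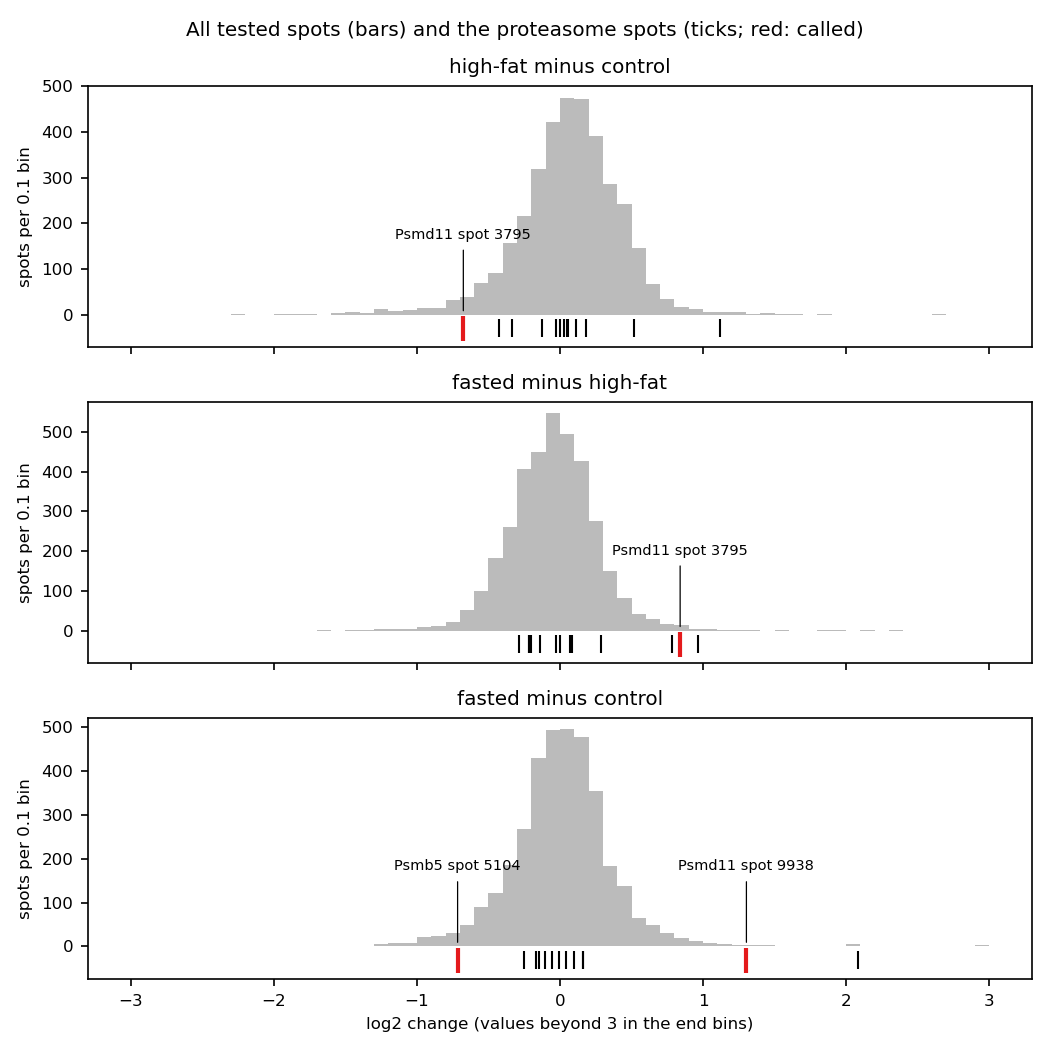
Number of spots by log2 change for all 3606 tested spots in each comparison, with a mark for each of the 13 member spots. The members' medians of 0.03, -0.0033 and -0.005 lie close to the medians of all spots, 0.08, -0.05 and 0.01. Psmd2 lies in the upper tail in each comparison. The spots of Psmd11 differ: in fasted against control liver spot 9938 lies in the upper tail, while spot 3795 lies mid-range, with 55.9% of all spots larger in size.

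Psmd11, a scaffold subunit of the lid, was read by 2 spots, which gave unlike profiles. On spot 3795 the control arrays read 0.75, 1.08, 0.89 and 0.85, the high-fat arrays 0.32, 0.00 and 0.33, and the fasted arrays 0.93, 1.08 and 1.16. The high-fat arrays were all below the other groups, while the control and fasted values overlapped. The spot fell by 0.68 ± 0.13 (SE) on the log2 scale from control to high-fat liver, 1.60-fold (limma, adjusted p = 0.0213), and rose by 0.84 ± 0.14 from high-fat to fasted liver, 1.79-fold (limma, adjusted p = 0.0441). From control to fasted the change was 0.16 ± 0.13 (limma, adjusted p = 0.529).

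On spot 9938 the control arrays read -0.24, -0.48, 0.11 and -0.19, the high-fat arrays -0.19, 0.80 and 0.35, and the fasted arrays 1.11, 1.51 and 0.69. Here the fasted arrays were all above the controls, and the high-fat arrays lay between and overlapped with both groups. The spot rose by 1.30 ± 0.24 from control to fasted liver, 2.47-fold (limma, adjusted p = 0.0198). The changes of 0.52 ± 0.24 from control to high-fat (limma, adjusted p = 0.202) and 0.78 ± 0.26 from high-fat to fasted (limma, adjusted p = 0.203) were not called.

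The spots of Psmd11 were also set against each other on each array, a comparison added after their values were seen. Spot 3795 minus spot 9938 was 0.99, 1.56, 0.78 and 1.04 on the control arrays, 0.51, -0.80 and -0.02 on the high-fat arrays, and -0.18, -0.43 and 0.47 on the fasted arrays. The control arrays were all above the rest, with means of 1.09 ± 0.33 (SD, n = 4), -0.10 ± 0.66 (SD, n = 3) and -0.05 ± 0.46 (SD, n = 3). Set against control, the change of this difference was -1.20 in high-fat and -1.14 in fasted liver, each with a two-sided exact permutation p = 0.0571 (0.0856 adjusted over 3 comparisons), which is the smallest p that 4 arrays against 3 allow. Fasted against high-fat it was 0.06 (exact permutation p = 1, with 0.1 the smallest possible). Averaging the spots gave changes of -0.08 (limma, adjusted p = 0.763), 0.81 (adjusted p = 0.0462) and 0.73 (adjusted p = 0.0219) in the 3 comparisons. The rise from high-fat to fasted liver was thus called on the average too, and the fall on the high-fat diet was not. Which stretch of the transcript each spot reads is not stated.

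Leaving out single arrays ended some of these calls. The fall of spot 3795 was lost without high-fat array 2 (-0.57, limma adjusted p = 0.0905), the array on which it read 0.00, and its rise after the fast was lost without any 1 of the 10 arrays except control array 2 (limma adjusted p from 0.0524 to 0.148). The rise of spot 9938 was lost without fasted array 1 (limma adjusted p = 0.0667) or fasted array 2 (adjusted p = 0.0910).

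Psmd14, the deubiquitinase of the lid, read 0.07 to 0.30 on the control, 0.04 to 0.61 on the high-fat and 0.04 to 0.55 on the fasted arrays, so all groups overlapped. Its group means were 0.20 ± 0.10 (SD, n = 4), 0.38 ± 0.30 (n = 3) and 0.24 ± 0.27 (n = 3). Its change was 0.18 (95% interval -0.18 to 0.54) with the high-fat diet and 0.05 (-0.32 to 0.41) in fasted against control liver. Other lid spots were too sparse: Psmd6 read 1.58 on control array 2 and 0.56 on fasted array 1, Psmd12 and Psmd13 had 1 value each, and Psmd7 and Psmd8 had none on the 10 arrays.

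**Figure D3:**
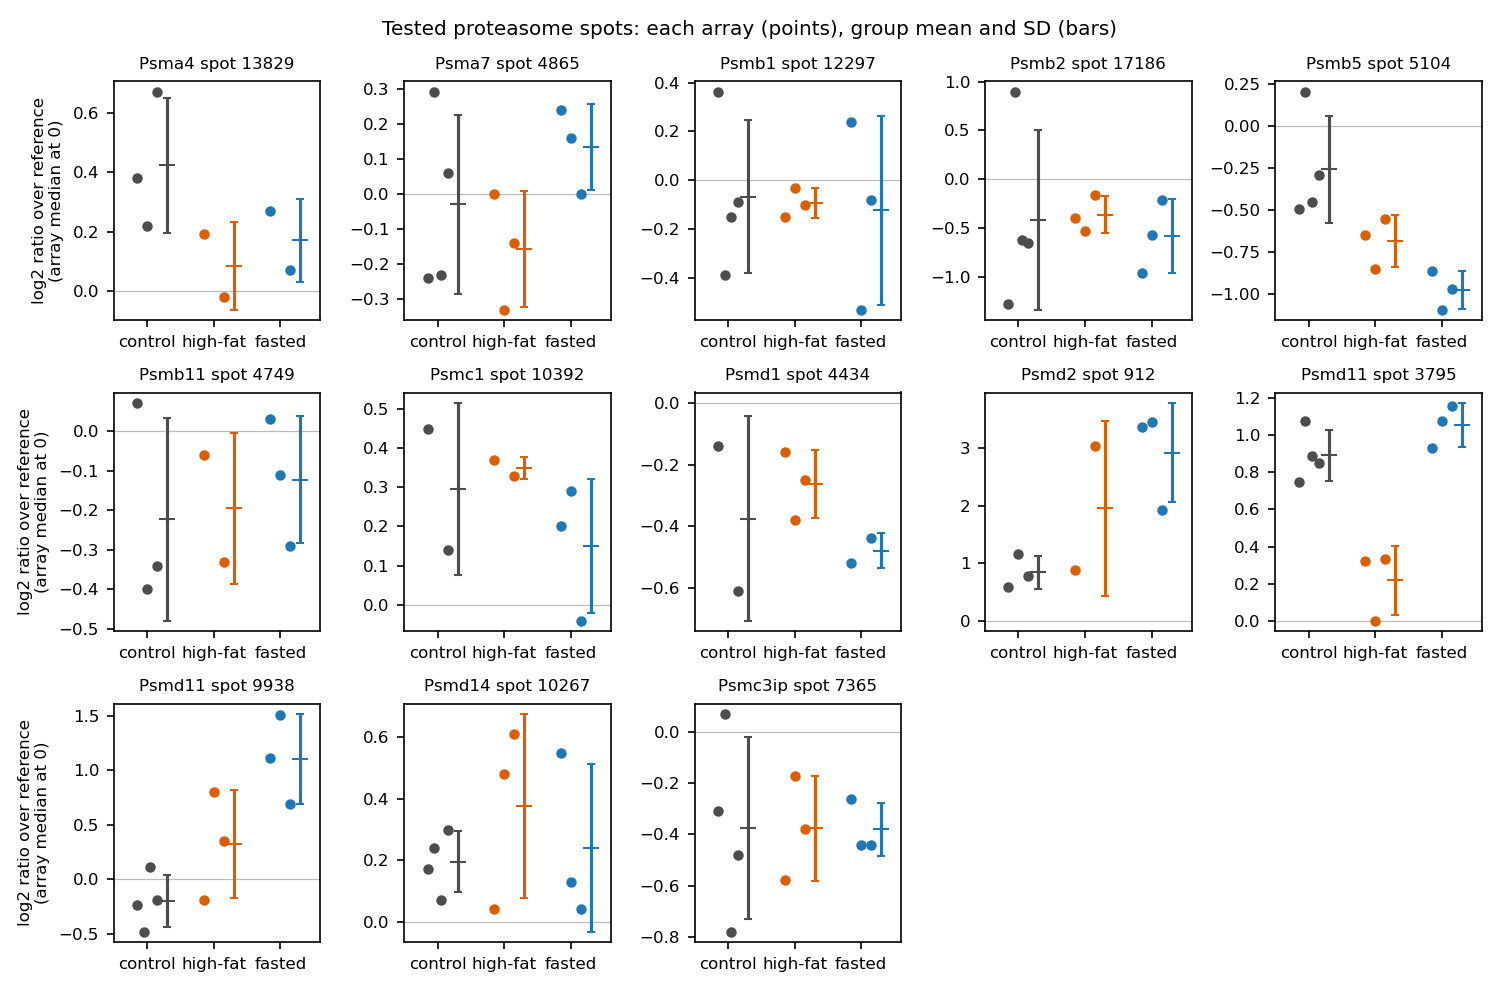
Centred log2 ratio of liver over reference on each array for the 13 tested member spots, with 1 point per array and a bar at each group mean. The fasted arrays are all above the controls for Psmd2 and Psmd11 spot 9938 and all below them for Psmb5, while the high-fat arrays alone are low on Psmd11 spot 3795.

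In the base, the widest range of any tested member was that of Psmd2, a large scaffold subunit that docks ubiquitin receptors. Its spot read 0.58, 1.15 and 0.78 on control arrays 1 to 3 and was empty on control array 4. It read 0.88 on high-fat array 1 and 3.03 on high-fat array 3, with high-fat array 2 empty, and 3.37, 3.46 and 1.93 on the fasted arrays. The fasted arrays were all above the controls, and the pair of high-fat values spanned almost the whole distance between them. Fasted against control, the difference of 2.08 ± 0.52 (4.24-fold) was the largest of the members, with 0.25% of all spots larger in size, and just missed the threshold (limma, adjusted p = 0.0575). It was 1.12 ± 0.59 for high-fat against control (limma, adjusted p = 0.264) and 0.97 ± 0.59 for fasted against high-fat (adjusted p = 0.450). Fasted against control, Psmd2 passed the threshold without fasted array 3, the lowest of its group (2.58, limma adjusted p = 0.0365), when only the fasted and control arrays were fitted (adjusted p = 0.0353), and on the uncentred values (2.23, adjusted p = 0.0176). Under the other 16 of 19 alternatives it did not pass (limma adjusted p up to 0.197).

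The rest of the base showed smaller differences. Psmd1, the other large scaffold, had means of -0.38 ± 0.33 (SD, n = 2), -0.26 ± 0.11 (n = 3) and -0.48 ± 0.06 (n = 2) in control, high-fat and fasted liver. The ATPase Psmc1 had means of 0.30 ± 0.22 (n = 2), 0.35 ± 0.03 (n = 2) and 0.15 ± 0.17 (n = 3). No change of either passed the test, the largest being -0.22 ± 0.18 for Psmd1 (limma, adjusted p = 0.590) and -0.20 ± 0.17 for Psmc1 (adjusted p = 0.604), both in fasted against high-fat liver. The ATPase Psmc4 missed the filter with 1 high-fat value. It read -1.07, -0.82 and -1.45 on control arrays 1 to 3, -0.68 on high-fat array 1, and -1.27, -1.37 and -1.58 on the fasted arrays. With 1 value per group allowed, its changes were 0.43 with the high-fat diet, -0.73 with the fast and -0.29 over both, and none was called (limma over 4574 spots, adjusted p = 0.370, 0.316 and 0.439).

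In the core, Psmb5, which carries the chymotrypsin-like site of the beta ring, read -0.49, 0.20, -0.45 and -0.29 on the control arrays, -0.65, -0.85 and -0.55 on the high-fat arrays, and -0.86, -1.09 and -0.97 on the fasted arrays. The 3 groups did not overlap in any pair: control was highest, high-fat lay between and fasted was lowest, although the neighbouring values of -0.49 and -0.55, and of -0.85 and -0.86, lay close together. Of all spots, 25.9% (high-fat against control), 29.0% (fasted against high-fat) and 22.5% (fasted against control) did not overlap. The share without overlap in all 3 pairs was not counted. Psmb5 fell by 0.72 ± 0.17 on the log2 scale in fasted against control liver, 1.64-fold (limma, adjusted p = 0.0395). The steps of -0.43 ± 0.17 from control to high-fat (limma, adjusted p = 0.140) and -0.29 ± 0.18 from high-fat to fasted (adjusted p = 0.454) were not called, and the second step was -0.01 after scaling and -0.04 after quantile normalisation. The call was lost without control array 4, high-fat array 3, or any 1 of the fasted arrays (limma adjusted p from 0.0511 to 0.145), and under 7 of 11 other ways of processing. The change kept its sign in all of them. Psmb5 and Psmd11 spot 9938 thus went opposite ways between control and fasted liver.

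No other tested beta subunit was called. Psmb1, a structural beta subunit, had means of -0.07 ± 0.31 (SD, n = 4), -0.09 ± 0.06 (n = 3) and -0.12 ± 0.39 (n = 3) in control, high-fat and fasted liver. Psmb2, another beta subunit, had means of -0.41 ± 0.92, -0.36 ± 0.19 and -0.58 ± 0.38 for the same numbers of arrays. Its control arrays ran from -1.27 to 0.89, the highest on control array 2. In fasted against control liver the 95% interval was -1.01 to 0.67 for Psmb2, -0.49 to 0.38 for Psmb1 and -1.08 to -0.35 for Psmb5. These intervals overlap, and a difference between the subunits was not tested.

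In the alpha rings, Psma7 had means of -0.03 ± 0.25 (SD, n = 4), -0.16 ± 0.17 (n = 3) and 0.13 ± 0.12 (n = 3). Psma4 read 0.38, 0.22 and 0.67 on control arrays 1, 3 and 4, 0.19 and -0.02 on high-fat arrays 1 and 3, and 0.27 and 0.07 on fasted arrays 1 and 3. Its high-fat values were below all of its control values, but the change of -0.34 ± 0.18 was not called (limma, adjusted p = 0.278). Psma6 read 0.27 and 1.28 on 2 control arrays and 0.69 on 1 high-fat array, and Psma1 had 1 high-fat and 2 fasted values between -0.03 and 0.20. The largest change of Psma7 was 0.29 ± 0.17 from high-fat to fasted liver (limma, adjusted p = 0.415).

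Of the inducible beta subunits, which replace the constitutive ones in the immunoproteasome, none could be tested. Psmb9 read -0.01, -0.65 and -0.39 on control arrays 2 to 4, -0.12 on high-fat array 3, and -0.43, -0.04 and -0.10 on the fasted arrays. With 1 value per group allowed its changes were 0.23, -0.07 and 0.16 (limma, adjusted p = 0.674, 0.935 and 0.702). Psmb8 had 1 control and 1 high-fat value, 0.19 and -0.21, and Psmb10 had none. Psmb11, known as the beta subunit of the thymic cortex, had means of -0.22 ± 0.26 (SD, n = 3), -0.20 ± 0.19 (n = 2) and -0.12 ± 0.16 (n = 3). A ratio near the middle of the array does not show that liver expresses it.

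The activators cap the core in place of the regulatory particle, and their 4 spots had few values. Psme4 read 0.06 and -0.21 on control arrays 2 and 4, Psme3 0.92 on control array 2 and 0.00 on high-fat array 1, and Psme2 had no value on the 10 arrays. The chaperone Psmd10, which helps to assemble the base, read 0.83 and -0.74 on control arrays 2 and 3 and -0.15, -0.42 and 0.06 on the high-fat arrays, and was empty on the fasted arrays. Psmc3ip showed the smallest differences of the tested spots, with means of -0.38 in each group and changes of -0.0017, -0.0033 and -0.005.

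**Figure D4:**
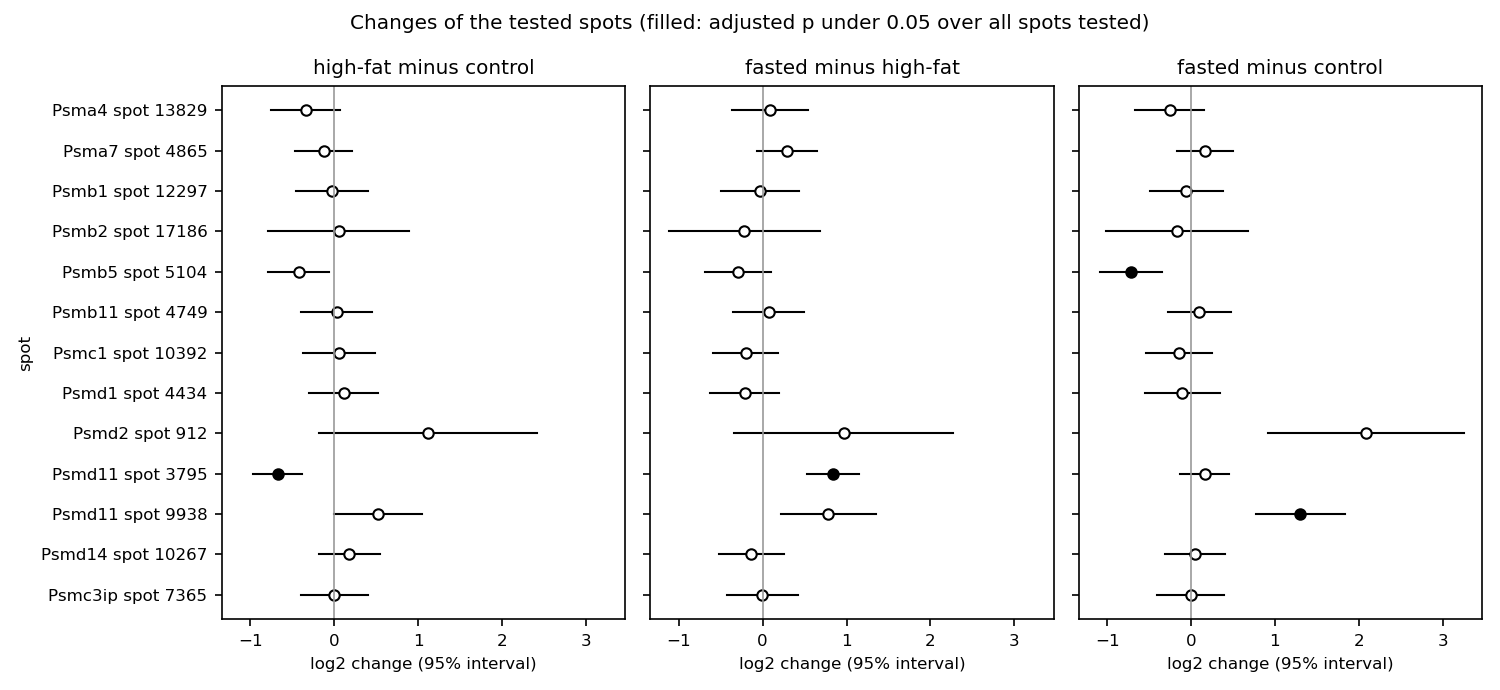
Log2 change with its 95% interval for the 13 tested member spots, ordered by role, in the 3 comparisons. Filled marks are called at an adjusted p under 0.05: Psmd11 spot 3795 at -0.68 and 0.84, Psmd11 spot 9938 at 1.30 and Psmb5 at -0.72.

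The wider ubiquitin and protein turnover machinery was read from lists of 142 genes, of which 108 have a spot and 27 could be tested. None was called in high-fat against control or in fasted against high-fat liver, and 1 rose and 0 fell in fasted against control, with 4 of 27 at an unadjusted p under 0.05 in each comparison. Over all 3606 spots the called share was 5.27%, 0.333% and 3.83%, with 919, 536 and 745 at an unadjusted p under 0.05. Their median changes were 0.11, -0.12 and -0.12, with 17, 6 and 10 of the 27 above 0. The gene that rose was Ube2d1, a ubiquitin-conjugating enzyme that works with many ligases. It read -0.40, -0.69 and -0.56 on control arrays 2 to 4, 0.13 and -0.07 on high-fat arrays 2 and 3, and 0.34 and 0.33 on fasted arrays 1 and 2. Its 3 groups did not overlap, with only 2 values each in high-fat and fasted liver. In the single comparisons 25.9%, 29.0% and 22.5% of all spots did not overlap, and the share without overlap in all 3 was not counted. The rise of 0.89 ± 0.16 from control to fasted liver had an adjusted p of 0.0257 with limma, and 0.0574 without control array 3.

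Of the 5 conjugating enzymes tested, all 5 were above 0 with the high-fat diet and 1 with the fast, beside 60.4% and 43.2% of all spots. After scaling, 4 of the 5 were above 0 with the high-fat diet. Ube2g1 had a difference of 0.67 ± 0.17 with the high-fat diet (limma, adjusted p = 0.0600) and -0.63 ± 0.19 with the fast (adjusted p = 0.197). Ube2j2, which is anchored in the endoplasmic reticulum membrane, had -0.58 ± 0.13 with the fast (limma, adjusted p = 0.0900). The cullin scaffold Cul4a had -0.97 ± 0.26 there (limma, adjusted p = 0.142), and Elob, the other tested gene of the cullin ligases, had 0.13. Among the antigen processing genes, which use the peptides the proteasome makes, the class I heavy chain H2-D1 had -0.91 ± 0.25 with the high-fat diet and -0.95 ± 0.25 in fasted against control liver (limma, adjusted p = 0.0521 and 0.0541), and H2-T23 had 0.02 and -0.03. H2-D1 passed the threshold in 4 of 22 alternatives in high-fat against control liver and in 4 of 22 in fasted against control liver. With the spots of the gene averaged, its change with the high-fat diet was -1.11 (limma, adjusted p = 0.0318). H2-D1 is one of a family of near-identical genes, so its spots may read several of them.

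No gene of the remaining lists passed the test. Of the 6 ubiquitin shuttles and partners of the segregase VCP, Vcp itself had 0.25 ± 0.11 in fasted against control liver (limma, adjusted p = 0.241). Of the 6 autophagy and lysosome genes, Atg7 had 0.54 ± 0.16 with the high-fat diet (limma, adjusted p = 0.0667), and Lamp2 -0.41 ± 0.17 with the fast (adjusted p = 0.298), a comparison in which 0 of the 6 were above 0. Among assembly factors and proteasome-bound proteins, the core chaperone Pomp had -0.44 ± 0.25 and the deubiquitinase Usp14 0.18 ± 0.11 in fasted against control liver (limma, adjusted p = 0.359 and 0.379). Nfe2l2 and Stat3, the transcription factors that could be tested, had -0.24 ± 0.13 and -0.27 ± 0.19 there (limma, adjusted p = 0.348 and 0.460). Uba6 and Sae1, of the activating enzymes for ubiquitin and SUMO, lay between -0.21 and 0.13 in the 3 comparisons. No gene of the COP9 signalosome and no muscle atrophy ligase could be tested.

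Markers of liver cell types also differed between the groups. All 10 tested hepatocyte markers were below 0 both in high-fat and in fasted against control liver, with medians of -0.60 and -0.72, and their mean per array was 1.79 to 2.86 on control, 1.31 to 1.57 on high-fat and 1.37 to 1.43 on fasted arrays. Cyp3a11 and Apoa1 fell in the first (-1.98 and -1.01), and Ttr and Cyp3a11 in the second (-1.38 and -1.87; limma, adjusted p from 0.0198 to 0.0456). With the fast their median was 0.11, with 6 of 10 above 0. In the comparisons with high-fat liver, whose arrays had the narrower spread, the counts and medians of the list moved once the spread was equalised. After scaling or quantile normalisation, 6 and 5 of the 10 markers were above 0 in high-fat against control liver (medians of 0.14 and -0.03), with Ttr at 0.32 and 0.06 and Apoa1 at -0.43 and -0.38, and with the fast their medians were -0.55 and -0.35. In fasted against control liver the medians stayed below 0, at -0.65 and -0.58, with 10 and 7 of 10 markers below 0, and on uncentred values 8 of 10 were. Cyp3a11 stayed below 0 in high-fat against control liver under all 22 alternatives, from -2.30 to -1.32. Its call there was lost without any 1 of the high-fat arrays (limma adjusted p from 0.0508 to 0.0751) and under 0 of 12 other ways of processing. The call of Apoa1 in high-fat liver was lost in 14 of 22 alternatives, 7 of them a left-out array (adjusted p up to 0.244). The endothelial marker Kdr, the only 1 of its list tested, rose by 0.90 in fasted against control liver (limma, adjusted p = 0.0192), and its values ran from -0.08 to 0.42 in control, 0.48 to 0.75 in high-fat and 0.97 to 1.22 in fasted liver. Without fasted array 1 or 2, the calls of Kdr and Ttr in fasted against control liver were lost (limma adjusted p = 0.0667 and 0.0720 for both), as they were with all 11 arrays (adjusted p = 0.212 and 0.117) and, for Ttr, after scaling (0.238), and that of Cyp3a11 was lost without control array 1, control array 3 or any 1 of the fasted arrays (adjusted p up to 0.120). The part of these shifts in the changes of Psmd11, Psmd2 and Psmb5 was not tested. Of the other lists, 1 macrophage marker (C1qc), 3 lymphocyte or antigen-presenting, 2 stellate and 1 bile duct marker were tested and none was called, and no red cell, adipocyte, pancreas or muscle marker could be tested.

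When each array was scaled to a common spread, 0 member spots were called with limma in any comparison, with 3, 2 and 3 of the 13 at an unadjusted p under 0.05. Psmd11 spot 3795 then had changes of -0.51 and 0.67 (adjusted p = 0.0683 and 0.101), Psmd11 spot 9938 had 1.20 (adjusted p = 0.0708) and Psmb5 had -0.64 (adjusted p = 0.102), all of the same sign as before. After quantile normalisation, which also equalises the spread, the rise of Psmd11 spot 3795 with the fast (0.74, limma adjusted p = 0.0458) and that of Psmd11 spot 9938 (1.31, adjusted p = 0.0315) were called, and the other member calls were not. The split of calls over all spots also moved with scaling. In high-fat against control liver it was 114 higher and 76 lower, but 44 and 64 on uncentred values, 58 and 93 after centring on the spots filled on all 10 arrays, 114 and 29 after scaling and 145 and 26 after quantile normalisation. In fasted against control liver it was 92 and 46, but 216 and 22, 43 and 55, 18 and 6, and 78 and 16 in the same order. In fasted against high-fat liver it was 2 and 10, but 10 and 5, 0 and 7, 0 and 15, and 3 and 22. On uncentred values the median of all spots was 0.16 in fasted against high-fat and 0.21 in fasted against control liver, in place of -0.05 and 0.01, and the members' medians of 0.20 and 0.19 shifted with it.

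**Figure D5:**
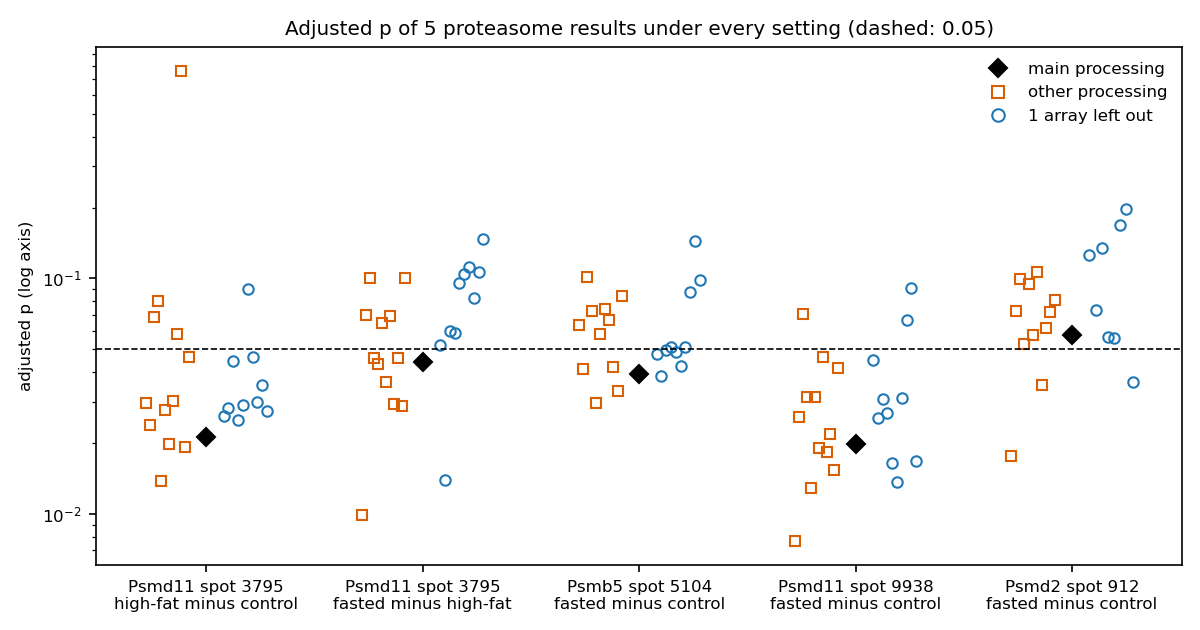
Adjusted p (log axis, limma with Benjamini-Hochberg) of the 4 called member changes and of Psmd2 in fasted against control liver, with 1 point for the main processing and for each alternative and a dashed line at 0.05. Points lie on both sides of the line for each of the 5, and the rise of Psmd11 spot 3795 after the fast was lost in 14 of 22 alternatives.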

How the data were processed

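RNA of mouse liver and a common reference RNA were read on 1 2-colour array per mouse, per the labels. The deposited values are log ratios, taken as log2 of liver over reference. How background was corrected, how arrays were normalised and why cells are empty is not stated in the labels. Symbols came from the platform's table: 14718 rows carry 1 symbol, 1 carries several and 2561 carry none. Each of the 10 arrays compared was centred on its median. Spots with 2 or more values in each of 3 groups (3606) were fitted with limma 3.58.1 (R 4.3.3, lmFit and eBayes, 1 spread for all groups) and adjusted by Benjamini-Hochberg over all of them, with calls at an adjusted p under 0.05. Spots of 1 gene were kept apart. High-fat array 4 was left out, as the rule for the members asks. In simulated data with 200 of 3606 spots changed by 1 on the log2 scale, 160, 166 and 170 were recovered, with 17, 12 and 7 false calls, for high-fat against control, fasted against high-fat and fasted against control. The simulated noise was drawn for each spot alone, with no shift shared by the spots of an array. These counts therefore do not give the recovery to be expected on the real arrays.

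The members, gene lists and tests were chosen with earlier results of these data known. Values on every array are given for member spots called in any comparison, for the 3 with the largest change in each comparison, and for genes with several tested spots. Other values were added where few arrays hold one, after they were seen. From the pathway lists, called genes and at most the 2 with the smallest p per list and comparison are named. The alternatives were other centring and scaling, quantile normalisation, other filters, all 11 arrays, only the 2 groups compared, averaged spots, another spread model, a replicate block and each array left out in turn. The labels give separate mice, so the p-values measure the spread between these mice.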

Additional observations from a re-analysis of the deposited data

Results flagged for a closer look

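High-fat array 4, which no comparison uses, held a value for 16 member spots, 10 of which also have a control value. On 5 of these 10 it read above the highest control array: Psme1 at 2.22 (1 control value, 1.47), Psmb9 at 0.45 (highest of 3 controls -0.01), Psmd1 at 0.03 (highest of 2 controls -0.14), Psmb11 at 0.30 (highest of 3 controls 0.07) and Psmc3ip at 0.42 (highest of 4 controls 0.07). The share of all spots that read above the highest control on high-fat array 4 was not counted, so the 5 of 10 are not read as particular to the members. The array did not correlate with the others across spots, with r from -0.03 to 0.01, so the match of its values to the genes of its rows is in doubt. In the 8 member spots with 4 control values, no control array stood apart from the others by Dixon's test. With 4 values this test marks only a very wide gap on a single spot, so no conclusion on control array 2 is drawn from it.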

How the results depend on the processing

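All 39 member results were recomputed under 22 alternatives, which gave 792 values. Of these, 753 kept their side of the threshold, 34 called values lost the call, 5 gained one, and 0 called values changed sign, while 58 values that were not called did. Among the calls, Psmd11 spot 3795 lost its fall in 5 of 22 and its rise after the fast in 14 of 22, Psmd11 spot 9938 lost its rise in 3 of 22, Psmb5 lost its fall in 12 of 21, and Ube2d1 lost its rise in 5 of 17. For Ube2d1 only 6 of the 10 arrays could be left out in turn. Without high-fat array 2 or 3, or fasted array 1 or 2, it had too few values to be tested. For high-fat against control, all-spot calls numbered 108 on uncentred values, 124 with all 11 arrays and 48 with the 2 groups alone. The members' count was 0 after scaling, after quantile normalisation, with the 2 groups alone and with averaged spots. For fasted against high-fat, all-spot calls numbered 7 after centring on filled spots, 25 after quantile normalisation, 6 with a value on every array, 3 with 1 value per group, 3 with all 11 arrays and 46 with the 2 groups alone. The members' count was 0 after centring on filled spots, after scaling, with 1 value per group and with all 11 arrays, and their median was 0.20 on uncentred values. For fasted against control, all-spot calls numbered 238 on uncentred values, 24 after scaling, 38 with all 11 arrays and 66 with the 2 groups alone. The members' count was 0 after scaling and 1 after quantile normalisation, with 1 value per group, without the 20% of spots with the lowest mean ratio (where Psmb5 could not be tested) and with all 11 arrays, and their median was 0.19 on uncentred values. Leaving out 1 array at a time gave 33 to 210, 3 to 30 and 0 to 168 calls over all spots, 0 to 1, 0 to 1 and 0 to 2 among members, and member medians from -0.042 to 0.058, -0.135 to 0.078 and -0.04 to 0.143. Without high-fat array 2 the difference between the spots of Psmd11 was -0.85 in high-fat against control. The cause of these shifts was not tested, apart from the fewer arrays or spots that some alternatives fit.

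Replicate numbers are shared between groups, but the arrays are separate mice. The deviations of same-numbered arrays correlated with r from -0.164 to 0.193, and 3 of 9 arrays were closest to their own number. The 3 of 9 pairs over 0.1 were all of number 1, at 0.139, 0.193 and 0.121. Pairs of numbers 2 and 3 lay between -0.164 and 0.0876. The numbers were not taken to pair the samples, and whether the arrays numbered 1 share a batch was not tested. With the replicate number as a block, all-spot calls were 135, 3 and 129, and member calls 1, 0 and 1. Intensities are not used here, so limits set by signal over background are unknown.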
